A study of Homo sapiens with 4 samples.

Results

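The genes that mark luminal and basal identity of the bladder lining were followed in the established bladder cancer line UM-UC-3 (human). The cells had received siRNAs against 2 RNA-binding proteins and a long non-coding RNA. The 10 genes were the luminal transcription factors PPARG, FOXA1 and GATA3, the uroplakins UPK2 and UPK3B, the keratins KRT8, KRT18, KRT19 and KRT5, and the basal transcription factor TP63. They were chosen by name and not by their values, though with earlier results of these data known. Each of the 10 had an Ensembl identifier in the table of each library, among 27629 genes listed in at least 1 table. The 4 libraries came from total RNA of cells transfected for 48 h with 75 nM siRNA: control siRNA, or a mixture of 2 siRNAs against hnRNPK, against PTBP1 or against lncRNA-LBCS. There was 1 library per condition from 1 cell line, so the spread between cultures is unknown for every difference. Intervals are at the 95% level and cover counting error only, since reads without molecular identifiers are not independent molecules. The values are CPM, a gene's reads relative to a fixed library total, and whole reads could be recovered from them. The libraries held 54301152 to 70232674 reads on listed genes, and 3 reads corresponded to 0.0427 to 0.0552 CPM.

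The urothelium is layered. Its basal cells carry the transcription factor p63 with keratin 5, and its luminal cells are driven by PPARG, GATA3 and FOXA1. The surface layer is coated with plaques of uroplakins. Keratin 8 and keratin 18 are partners in the filaments of simple epithelia and are also found in luminal urothelial cells. Bladder cancers are grouped into luminal and basal subtypes by such genes. hnRNPK and PTBP1 are RNA-binding proteins, and hnRNPK also binds DNA with runs of C.

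The siRNAs are shown because they define the libraries. Each is printed as the sense strand given in the labels, and the capitals mark bases 12 to 18, the 7 bases that pair with bases 2 to 8 (the seed) of the guide strand.
Control siRNA: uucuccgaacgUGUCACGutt
hnRNPK siRNA 1: ggguuguagagUGCAUAAatt
hnRNPK siRNA 2: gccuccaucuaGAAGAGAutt
PTBP1 siRNA 1: gccucaacgucAAGUACAatt
PTBP1 siRNA 2: cccucauugacCUGCACAatt
lncRNA-LBCS siRNA 1: gcugcucauuuGUCUGAUctt
lncRNA-LBCS siRNA 2: ggugguagucaACACAAAutt
The 19 paired bases of the knockdown siRNAs matched the transcripts of HNRNPK and 3 of its processed pseudogenes, of PTBP1, or of the gene of lncRNA-LBCS, and the transcripts of 0 of the 10 identity genes. In the longest annotated 3' UTRs of the 10 genes, the seed letters of the hnRNPK siRNAs occurred in 0. Those of the PTBP1 siRNAs occurred in KRT8 and UPK3B, those of the lncRNA-LBCS siRNAs in FOXA1, GATA3 and TP63, and those of the control siRNA in PPARG. Over 11919 genes the single seeds occurred in 3.2% to 19.7% of the longest 3' UTRs, so a match is a description and not a site.

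The targeted genes were examined first. HNRNPK measured 783.1 CPM under control siRNA and 187.8 CPM under si-hnRNPK. PTBP1 measured 280.0 CPM under control siRNA and 89.7 CPM under si-PTBP1. The gene matched by the lncRNA-LBCS siRNAs measured 1.79 CPM under control siRNA and 1.47 CPM in the si-lncRNA-LBCS-labelled library, a ratio of 0.818 whose interval from 0.619 to 1.08 includes 1. That library is therefore called by its label. The same gene measured 3.43 CPM under si-hnRNPK and 3.82 CPM under si-PTBP1.

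In control cells the expressed identity genes were mainly the keratin pair, and most of the luminal and basal markers were close to the limit of counting. KRT8 and KRT18 made up 97.1% of the summed CPM of the 10 genes with control siRNA, and 93.7% to 96.7% in the other libraries. Only 4 of the 10 genes reached 1 CPM with control siRNA, namely KRT18, KRT8, PPARG and FOXA1. The same 4 did so in the si-lncRNA-LBCS-labelled library, and TP63 joined them with si-hnRNPK and si-PTBP1. The plot of levels by library shows this split.

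**Figure D1:**
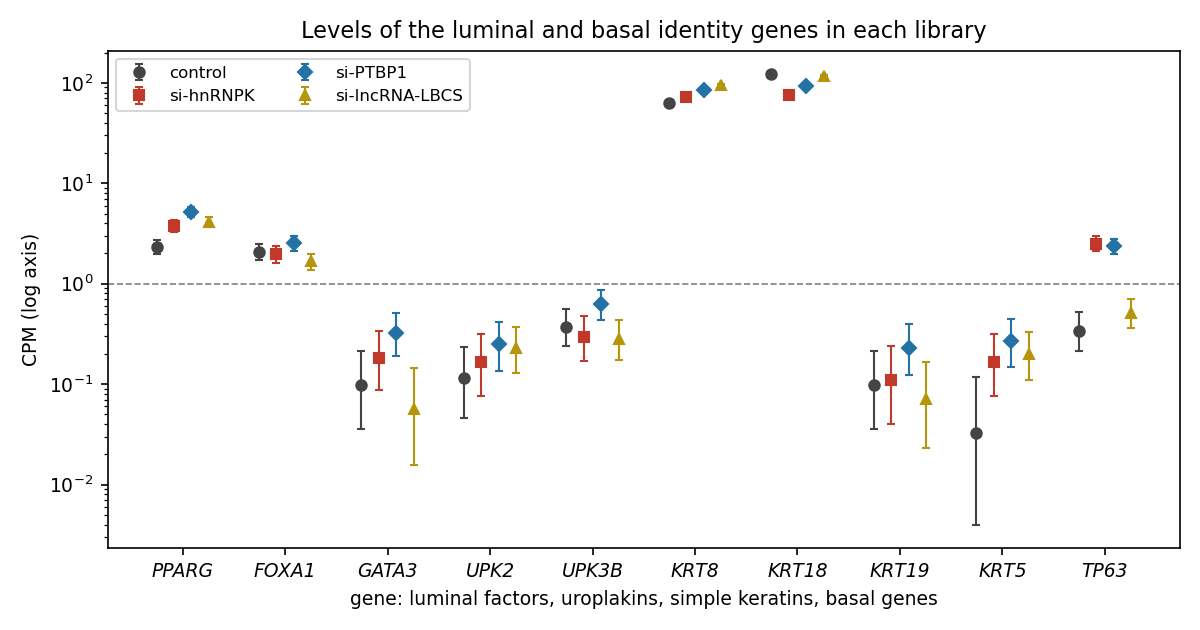
CPM of the 10 identity genes (x axis) in each of the 4 libraries, on a log axis. Points are single libraries, bars are 95% exact Poisson intervals of the reads and the dashed line is 1 CPM. KRT8 and KRT18 lie between 63.04 and 121.4 CPM, GATA3, UPK2, UPK3B, KRT19 and KRT5 lie below 1 CPM in every library, and TP63 is above 1 CPM with si-hnRNPK and si-PTBP1.

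Levels of different genes were compared per kb of the longest annotated transcript. With control siRNA the order was KRT18 at 58.1 CPM per kb, KRT8 at 22.0, PPARG at 1.15 and FOXA1 at 0.723, and the intervals of these neighbours did not overlap. From UPK3B, at 0.158 CPM per kb, down to KRT5, at 0.0129, each gene's interval overlapped that of the next. The first 4 places were held by the same genes in all 4 libraries. TP63 took the fifth place with si-hnRNPK, at 0.510 CPM per kb, and with si-PTBP1, at 0.483, against the eighth place with control siRNA, at 0.0697. With si-hnRNPK its interval overlapped that of FOXA1, and with si-PTBP1 it overlapped neither neighbour.

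The label of the gene set was set beside other marker lists. The cells carried markers of a mesenchymal state: VIM, an intermediate filament of mesenchymal cells, was at 1417 to 2343 CPM, and ZEB1, a repressor of epithelial genes, at 103.4 to 148.9 CPM. Of 11 mesenchymal genes, 9 to 11 reached 1 CPM in each library. Among epithelial markers EPCAM had a value in the si-PTBP1 table only, at 0.0178 CPM, and CDH1, KRT14 and KRT17 were not analysed here. EPCAM was singled out from 20 genes for epithelial adhesion and keratin attachment, of which 5 to 8 reached 1 CPM in each library. Among those, PLEC was at 1568 to 2421 CPM and TJP1 at 51.2 to 60.5 CPM. The identity set is thus named for urothelial identity, while 5 of its 10 genes stayed below 1 CPM in every library. Of 11 blood cell genes (leukocyte genes and the haemoglobin genes HBB and HBA1) 3 or 4 had a value, and their summed level was 0.484 to 2.89 CPM. The highest of them, ITGAM, went from 0.978 CPM (control siRNA) to 2.78 CPM (si-hnRNPK), and the part of other cells in the results was not tested. In RNA from whole cultures, fewer cells that express a gene and less RNA per cell cannot be told apart.

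Changes are given as differences in log2(CPM + 1) against control siRNA, a scale that understates changes of low genes. A gene counted as up-regulated or down-regulated at a difference of at least 1 if it reached 1 CPM in at least 1 of the 2 libraries. In si-hnRNPK, 1 of the 5 identity genes at 1 CPM or more was up-regulated and 0 were down-regulated, against 3.55% and 3.93% of 13672 genes. In si-PTBP1 it was likewise 1 of 5 up and 0 down, against 2.92% and 0.613% of 13855 genes. In the si-lncRNA-LBCS-labelled library it was 0 of 4 in either direction, against 0.378% up and 1.01% down of 13492 genes. The up-regulated gene was TP63 in both si-hnRNPK and si-PTBP1. At 0.342 CPM with control siRNA, TP63 passed the filter only through the knockdown library where it was higher. It therefore also enters the medians of those comparisons. The median difference of the identity genes at 1 CPM or more was 0.19, 0.42 and 0.26 in the 3 comparisons, and that of all genes -0.11, 0.12 and -0.01. With median-of-ratios scaling the numbers over all genes became 612 up and 376 down in place of 486 and 537 for si-hnRNPK, and 257 and 133 in place of 404 and 85 for si-PTBP1. The 3 comparisons share the control library, so a value that is unusual in it enters all 3.

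**Figure D2:**
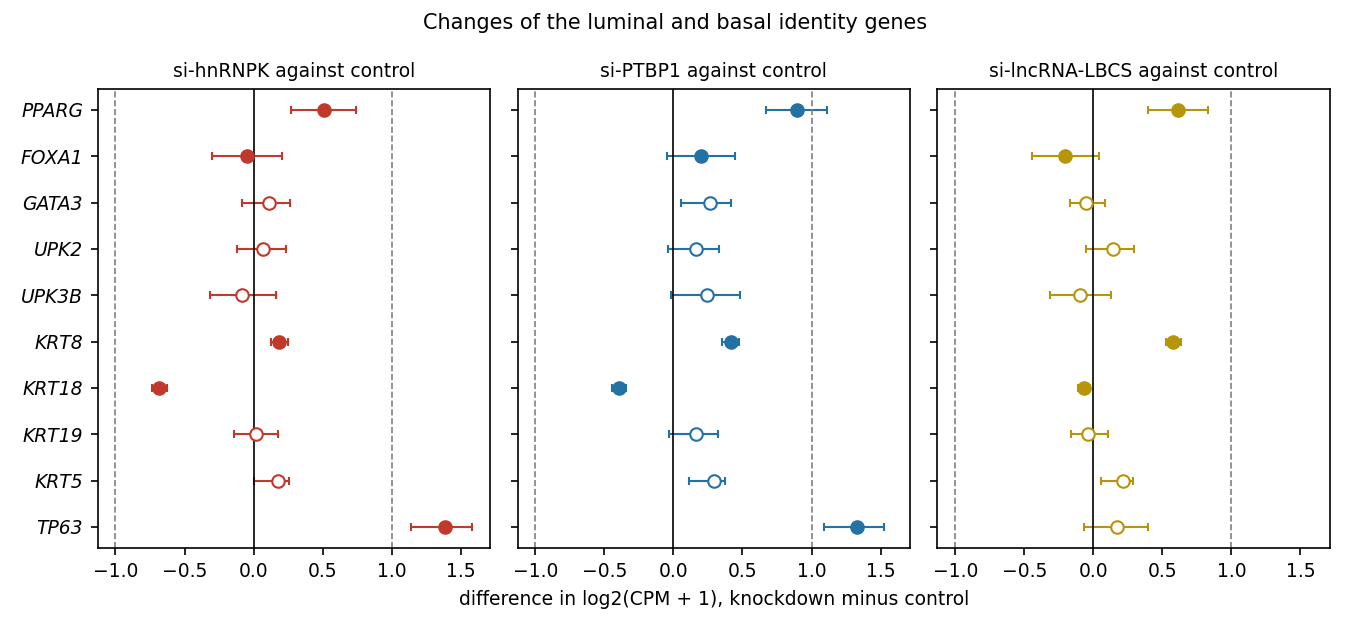
Difference in log2(CPM + 1) of each identity gene, knockdown minus control siRNA, in the 3 comparisons. Bars are 95% Clopper-Pearson intervals of the reads, filled points are genes at 1 CPM or more in 1 of the 2 libraries, and dashed lines are the thresholds of -1 and 1. TP63 passes the threshold with si-hnRNPK (1.38) and si-PTBP1 (1.33) and not in the si-lncRNA-LBCS-labelled library (0.17).

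TP63 (ENSG00000073282, GRCh38 chr3:189631416-189897279, plus strand) encodes p63, the master regulator of basal epithelial cells. It had 21 reads with control siRNA (0.342 CPM), 136 with si-hnRNPK (2.50 CPM), 133 with si-PTBP1 (2.37 CPM) and 36 in the si-lncRNA-LBCS-labelled library (0.513 CPM). TP63 was thus high in the hnRNPK and PTBP1 libraries and low in the other 2, and the intervals of both pairs lay apart. It rose 7.32-fold with si-hnRNPK (interval 4.60 to 12.2) and 6.93-fold with si-PTBP1 (4.36 to 11.6), or by 1.38 and 1.33 in log2(CPM + 1). Differences at least as high were seen in 1.33% and 0.844% of all genes tested. In the si-lncRNA-LBCS-labelled library the ratio was 1.498 with an interval from 0.851 to 2.70, which includes 1. Both rises kept their direction under median-of-ratios scaling and the geometric mean reference, the alternatives that can turn it. At these levels the size depends on the pseudocount, with 2.56 and 2.48 at a pseudocount of 0.1. Against the geometric mean of the other 3 libraries, which include the other raised library, the differences were 0.88 and 0.81, under the threshold.

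The values are for the gene as a whole, so transcripts from the upstream promoter of TP63 and those from its internal promoter, which encode the amino-terminally truncated form of basal cells, were not told apart. The upstream promoter window in RefSeq (GRCh38.p14 chr3:189631139-189631438, plus strand, 250 bases before to 50 after the start) is shown because TP63 was the identity gene that passed the threshold. It was searched on both strands for CCCTCCC, a C-rich run of the kind hnRNPK binds, and the window holds 0 matches, so it is printed without capitals.
TP63 promoter: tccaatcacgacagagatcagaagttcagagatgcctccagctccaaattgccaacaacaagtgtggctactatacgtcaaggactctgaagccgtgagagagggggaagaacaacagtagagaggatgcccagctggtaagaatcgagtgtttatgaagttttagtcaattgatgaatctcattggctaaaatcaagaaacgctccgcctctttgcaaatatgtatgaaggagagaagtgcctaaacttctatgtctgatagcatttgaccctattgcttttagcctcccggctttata
Of 35116 promoter windows of the same length 26.6% held the motif on either strand. Windows of 7 identity genes were found, and GATA3, FOXA1, UPK3B and KRT8 had a match in at least 1 of theirs. UPK2, KRT18 and KRT19 are not among them. The 26.6% is a share of windows, while GATA3 and PPARG had more than 1 window each. It is therefore not a background for the count of genes. A match or its absence is a description of these letters and does not speak to binding.

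The other basal gene, KRT5, is the type II keratin of basal cells and partners with KRT14. It had 2 reads with control siRNA, 9 with si-hnRNPK, 15 with si-PTBP1 and 14 in the si-lncRNA-LBCS-labelled library, or 0.0326 to 0.268 CPM. The control library was the lowest of the 4. The ratios to control were 5.09 (interval 1.05 to 48.4), 8.21 (1.91 to 74.0) and 6.12 (1.40 to 55.5), with wide intervals because of the 2 reads in control. KRT5 did not reach 1 CPM in any library.

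The keratin pair was the part of the set measured with the most reads. KRT18 (ENSG00000111057, GRCh38 chr12:52948871-52952901, plus strand) had 7452 reads with control siRNA, 4083 with si-hnRNPK, 5174 with si-PTBP1 and 8136 in the si-lncRNA-LBCS-labelled library. That is 121.4, 75.2, 92.3 and 115.8 CPM. KRT18 was highest with control siRNA and lowest with si-hnRNPK. The differences were -0.68 (interval -0.74 to -0.63), -0.39 (-0.44 to -0.34) and -0.07 (-0.11 to -0.02), outside counting error and under the threshold of 1. Against the geometric mean of the other 3 libraries they were -0.53, -0.14 and 0.29, so the direction turned in the si-lncRNA-LBCS-labelled library. Differences at least as low were seen in 11.8%, 7.67% and 43.2% of all genes tested.

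KRT8 (ENSG00000170421, GRCh38 chr12:52897187-52949954, minus strand) is the type II partner of keratin 18. It had 3869 reads with control siRNA, 3905 with si-hnRNPK, 4732 with si-PTBP1 and 6655 in the si-lncRNA-LBCS-labelled library, or 63.04, 71.9, 84.4 and 94.8 CPM. KRT8 was lowest with control siRNA. The differences were 0.19 (0.12 to 0.25), 0.42 (0.35 to 0.48) and 0.58 (0.52 to 0.64). Against the geometric mean of the other 3 libraries they were -0.14, 0.16 and 0.38, so the direction turned in si-hnRNPK. Differences at least as high were seen in 28.2%, 22.1% and 4.25% of all genes tested.

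The balance of the pair was also measured within each library, where scaling between libraries has no part. KRT18 made up 65.8% of the reads of the pair with control siRNA (interval 64.9 to 66.7), 51.1% with si-hnRNPK (50.01 to 52.2) and 52.2% with si-PTBP1 (51.2 to 53.2). In the si-lncRNA-LBCS-labelled library it was 55.0% (54.2 to 55.8). The interval of the control library lay above those of the other 3, and those of si-hnRNPK and si-PTBP1 overlapped. In reads, KRT18 stood to KRT8 as 1.93 to 1 with control siRNA and as 1.05, 1.09 and 1.22 to 1 in the other libraries. A ratio within a library shows unequal change and not which partner moved.

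**Figure D3:**
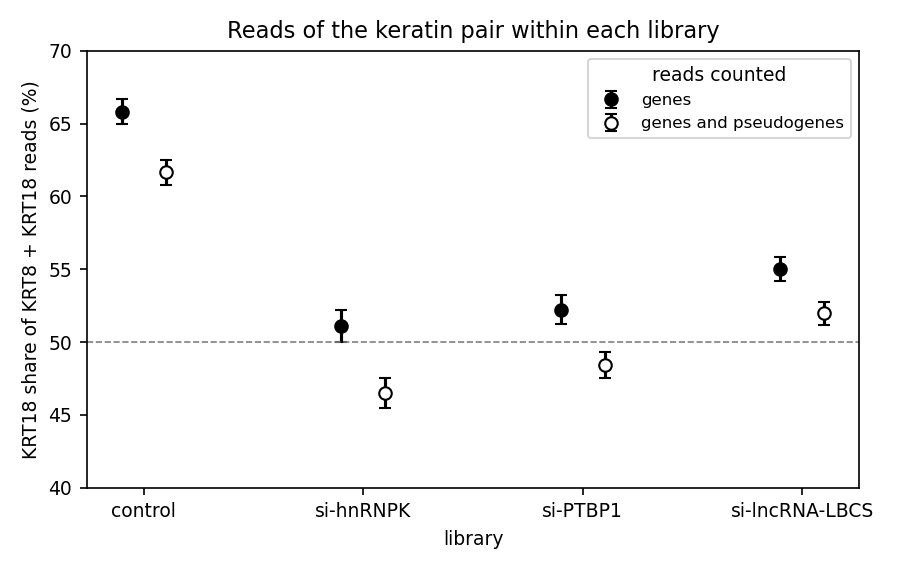
KRT18 reads as a percentage of KRT8 and KRT18 reads in each of the 4 libraries, on an axis from 40 to 70%. Filled points count the 2 genes, open points add their pseudogenes, bars are 95% exact binomial intervals and the dashed line is 50%. The control library is highest, at 65.8% for the genes and 61.7% with pseudogenes.

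Both keratins have many processed pseudogenes, to which reads could have been assigned. Of 13 KRT8 pseudogenes listed, KRT8P12, KRT8P33 and KRT8P39 reached 1 CPM, with KRT8P12 at 9.19 to 14.0 CPM. The KRT8 pseudogenes together held 17.4% to 25.5% of the CPM of KRT8. Of 19 KRT18 pseudogenes, KRT18P31 and KRT18P7 reached 1 CPM, and the 19 together held 3.91% to 7.63% of the CPM of KRT18. With the pseudogene reads added, the KRT18 share was 61.7%, 46.5%, 48.4% and 52.0% in the order control siRNA, si-hnRNPK, si-PTBP1 and the si-lncRNA-LBCS-labelled library. KRT8 and KRT18 are neighbours on opposite strands whose annotations overlap by 1084 bases, and reads there cannot be told apart without strand.

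The RefSeq promoter window of KRT8 (GRCh38.p14 chr12:52926420-52926719, minus strand) is shown because the balance of the pair differed between libraries and the window holds 1 match to the C-rich run, on the other strand as GGGAGGG, which is in capitals. It is the start listed in that table and lies inside the KRT8 locus as annotated in GENCODE 29, and other starts of the gene were not searched.
KRT8 promoter: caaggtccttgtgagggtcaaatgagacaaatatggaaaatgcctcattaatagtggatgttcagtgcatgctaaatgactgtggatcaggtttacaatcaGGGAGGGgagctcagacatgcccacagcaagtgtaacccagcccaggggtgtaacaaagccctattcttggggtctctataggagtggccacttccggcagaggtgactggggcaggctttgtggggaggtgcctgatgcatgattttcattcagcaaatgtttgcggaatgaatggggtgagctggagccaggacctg

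KRT19, the smallest type I keratin and a marker of simple and luminal epithelium, had 6 reads with control siRNA, 6 with si-hnRNPK, 13 with si-PTBP1 and 5 in the si-lncRNA-LBCS-labelled library. Each ratio to control had an interval that includes 1, the highest being 2.37 (0.841 to 7.61) with si-PTBP1. Differences in KRT19 were therefore not detectable at this depth.

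Genes whose differences in the 3 comparisons lay closest to those of the keratin pair were named by Euclidean distance over 9452 genes that had a symbol and reached 10 CPM in some library. For KRT18 these were NTHL1, HACL1 and GALNT1, at distances of 0.0609, 0.0630 and 0.0650. For KRT8 they were DENND5A, SPRYD3 and PDSS2, at 0.0244, 0.0485 and 0.0495. Within a distance of 0.1 there were 8 genes for KRT18 and 13 for KRT8, and each distance rests on 3 differences that share the control library.

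PPARG (ENSG00000132170, GRCh38 chr3:12287368-12434356, plus strand), a nuclear receptor that drives luminal differentiation, was above control by more than counting error in all 3 comparisons. It had 143 reads with control siRNA (2.33 CPM), 203 with si-hnRNPK (3.74 CPM), 291 with si-PTBP1 (5.19 CPM) and 288 in the si-lncRNA-LBCS-labelled library (4.10 CPM). PPARG was lowest with control siRNA and highest with si-PTBP1. The ratios to control were 1.60 (interval 1.29 to 2.001), 2.23 (1.82 to 2.74) and 1.76 (1.44 to 2.17). In log2(CPM + 1) these were 0.51, 0.89 and 0.62, below the threshold, and 12.2%, 4.22% and 3.57% of all genes tested had differences at least as high. With a pseudocount of 0.1 the si-PTBP1 difference was 1.12, past the threshold. Against the geometric mean of the other 3 libraries the differences were 0.0056, 0.52 and 0.15. That reference includes the other knockdown libraries, which were also above control. With 1 control library, a low control value and a rise in all 3 other libraries cannot be told apart.

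FOXA1, a pioneer factor that opens chromatin for luminal genes, had 127, 107, 142 and 117 reads in the order control siRNA, si-hnRNPK, si-PTBP1 and the si-lncRNA-LBCS-labelled library. That is 2.07, 1.97, 2.53 and 1.67 CPM. The ratios to control were 0.952 (interval 0.729 to 1.24), 1.22 (0.957 to 1.57) and 0.805 (0.621 to 1.04), and each interval includes 1. TTC6 overlaps FOXA1 on the other strand.

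GATA3, a zinc finger factor of luminal cells, had 6, 10, 18 and 4 reads in the same order, or 0.0570 to 0.321 CPM. It was highest with si-PTBP1, at 3.28 times control (interval 1.25 to 10.1), and the other intervals include 1. GATA3-AS1 lies on the other strand of its locus.

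The uroplakins were near the limit of counting. UPK2, which pairs with another uroplakin in the plaque, had 7, 9, 14 and 16 reads in the order control siRNA, si-hnRNPK, si-PTBP1 and the si-lncRNA-LBCS-labelled library. Its locus overlaps BCL9L, which was at 17.7 to 50.7 CPM on the other strand, and the part of such reads in UPK2 was not tested. UPK3B had 23, 16, 35 and 20 reads in that order, or 0.285 to 0.624 CPM. The intervals of the 6 uroplakin ratios to control all include 1, so differences were not detectable at this depth.

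Wider lists were examined to place the 10 genes among others of the same programmes. Of 19 further luminal genes, 8 reached 1 CPM in each comparison and 0 of the 8 passed the threshold in any of the 3. Of all genes tested, 0.378% to 3.93% passed it per direction, so a count of 0 of 8 does not set a list apart. The medians of the luminal list were 0.18, 0.40 and 0.24 for si-hnRNPK, si-PTBP1 and the si-lncRNA-LBCS-labelled library, beside -0.11, 0.12 and -0.01 for all genes. The most abundant by mean CPM over the 4 libraries were XBP1, a secretory transcription factor, at 30.9 to 68.1 CPM, and ERBB2, a receptor tyrosine kinase, at 33.5 to 54.2 CPM. RXRA, the partner of PPARG on DNA, was singled out after its values were seen and exceeded ERBB2 in 3 of the 4 libraries. It was at 35.2 CPM with control siRNA, 28.2 with si-hnRNPK, 63.9 with si-PTBP1 and 50.2 in the si-lncRNA-LBCS-labelled library.

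Of 11 genes regulated by PPARG with RXR, 8 reached 1 CPM in each comparison and 0 passed the threshold, against 0.378% to 3.93% of all genes per direction. Their medians were -0.37, -0.06 and -0.17, beside -0.11, 0.12 and -0.01 for all genes. CPT1A, which carries fatty acids into mitochondria, was at 126.5 CPM with control siRNA, 86.1 with si-hnRNPK and 181.1 with si-PTBP1. ANGPTL4, a secreted inhibitor of lipoprotein lipase, was at 73.6 to 89.5 CPM in the 4 libraries.

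Among the further basal genes, changes past the threshold went in both directions. Of 6 at 1 CPM or more among 19, COL17A1 and CD44 fell and STAT3 rose in si-hnRNPK, while COL17A1 alone passed in the other 2 comparisons. COL17A1, the hemidesmosome collagen that anchors basal cells, was at 44.9 CPM with control siRNA, 17.97 with si-hnRNPK, 11.5 with si-PTBP1 and 18.2 in the si-lncRNA-LBCS-labelled library. Its differences were -1.28 (interval -1.38 to -1.17), -1.87 (-1.99 to -1.76) and -1.26 (-1.35 to -1.17). COL17A1 was thus highest with control siRNA, and against the geometric mean of the other 3 libraries its differences were -0.23 in si-hnRNPK and -0.21 in the si-lncRNA-LBCS-labelled library, under the threshold.

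Of the other 2, CD44, the hyaluronan receptor of basal cells, was at 495.4 CPM with control siRNA, 225.2 with si-hnRNPK, 511.3 with si-PTBP1 and 304.0 in the si-lncRNA-LBCS-labelled library. Its difference of -1.13 in si-hnRNPK was -0.91 against the geometric mean of the other 3 libraries. STAT3, a transcription factor downstream of cytokine receptors, rose from 83.4 CPM to 192.3 CPM with si-hnRNPK, a difference of 1.20, which was 0.99 against that geometric mean. ITGA6, a laminin receptor subunit, was at 93.8 to 149.1 CPM. The medians of the basal list were -0.84, -0.22 and -0.61, beside -0.11, 0.12 and -0.01 for all genes. Of all genes, 0.378% to 3.93% passed the threshold per direction. EGFR, singled out after its values were seen, had differences of -0.95, -0.54 and -0.59.

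**Figure D4:**
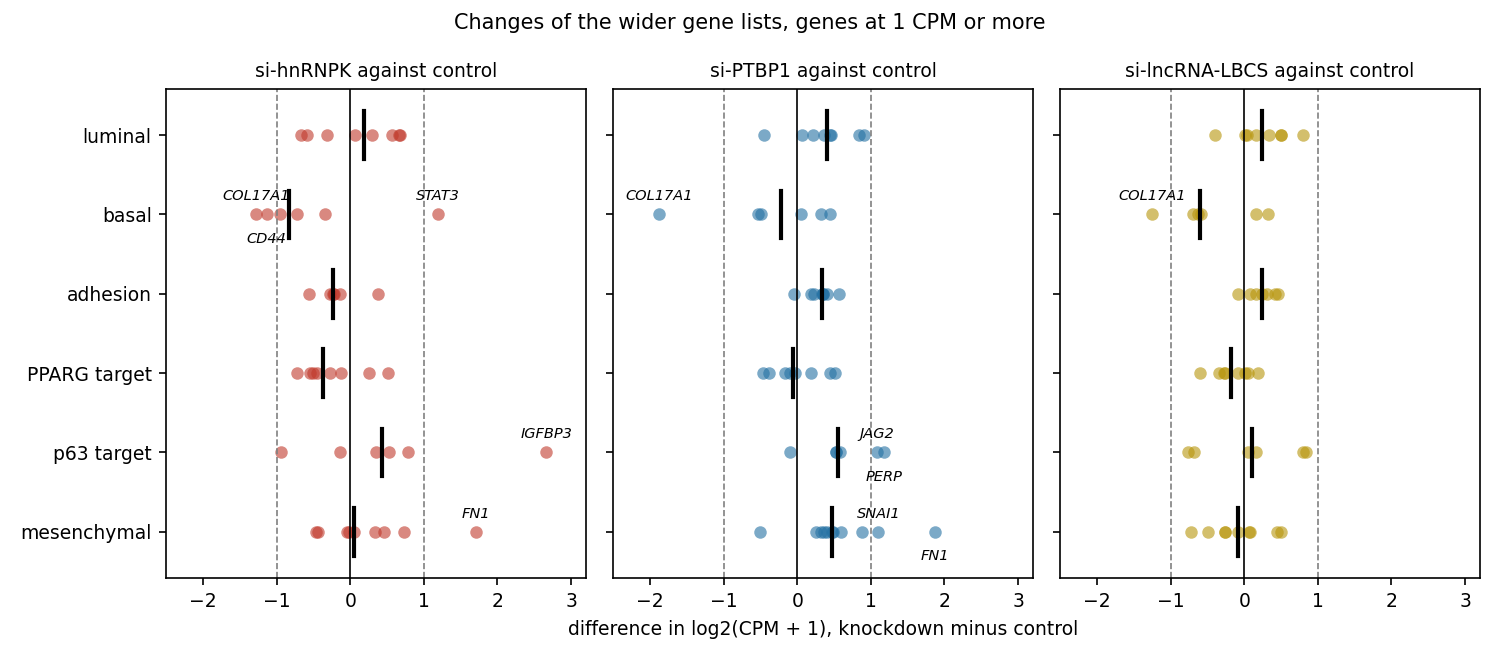
Difference in log2(CPM + 1), knockdown minus control siRNA, of genes reaching 1 CPM in 6 wider lists (rows), in the 3 comparisons. Each point is 1 gene, black bars are list medians, dashed lines are the thresholds of -1 and 1, and genes past a threshold are named. COL17A1 lies below -1 in all 3 comparisons and FN1 above 1 with si-hnRNPK and si-PTBP1.

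Of 10 genes known as p63 targets, 6 reached 1 CPM in each comparison. IGFBP3, a binding protein of insulin-like growth factors, rose from 10.98 CPM with control siRNA to 74.8 CPM with si-hnRNPK, a difference of 2.66. In si-PTBP1 PERP, a desmosome protein, rose from 27.9 to 64.7 CPM (1.18) and JAG2, a Notch ligand, from 1.94 to 5.24 CPM (1.09). With median-of-ratios scaling JAG2 was at 0.98, and against the geometric mean of the other 3 libraries PERP was at 0.66 and JAG2 at 0.63, all under the threshold. PERP and JAG2 were lowest with control siRNA and not raised in si-PTBP1 alone. PERP had differences of 0.79 with si-hnRNPK and 0.80 in the si-lncRNA-LBCS-labelled library, and JAG2 of 0.52 and 0.84. The 2 most abundant, ITGA3 and DST, which attach cells to laminin and to the basement membrane, were measured in all libraries. ITGA3 had differences of 0.35, 0.52 and 0.05 for si-hnRNPK, si-PTBP1 and the si-lncRNA-LBCS-labelled library. DST had differences of -0.14, -0.10 and -0.69, and was lowest in the si-lncRNA-LBCS-labelled library at 926.2 CPM against 1494 CPM with control siRNA. BCL9L, the last of the 6 genes, had differences of -0.94, 0.53 and -0.76, so it was lower with si-hnRNPK, where TP63 was higher. The medians of the list were 0.44, 0.56 and 0.11, beside -0.11, 0.12 and -0.01 for all genes.

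Of 20 genes for epithelial adhesion and keratin attachment, 6 to 8 reached 1 CPM in at least 1 library of a comparison. Of these, 0 passed the threshold in any comparison, against 0.378% to 3.93% of all genes per direction. PLEC, which links keratin filaments to the cell surface, was at 1568 to 2421 CPM, and TJP1, a tight junction scaffold, at 51.2 to 60.5 CPM. The medians were -0.23, 0.34 and 0.23, beside -0.11, 0.12 and -0.01 for all genes.

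In the mesenchymal list FN1, which encodes fibronectin, rose from 57.2 CPM with control siRNA to 188.7 CPM with si-hnRNPK and 211.1 CPM with si-PTBP1, by 1.70 and 1.87. Against the geometric mean of the other 3 libraries its si-hnRNPK difference was 0.94, under the threshold. SNAI1, a repressor of epithelial genes, rose from 2.69 to 6.92 CPM with si-PTBP1, by 1.10, and was at 0.99 with median-of-ratios scaling. SPARC, a matrix protein, was at 151.6 CPM with control siRNA, 209.7 with si-hnRNPK, 279.9 with si-PTBP1 and 125.9 in the si-lncRNA-LBCS-labelled library. VIM, the most abundant gene of the list, was at 2343 CPM with control siRNA, 1700 with si-hnRNPK, 1647 with si-PTBP1 and 1417 in the si-lncRNA-LBCS-labelled library. Its differences were -0.46, -0.51 and -0.72, so VIM was highest with control siRNA. The medians of the list were 0.06, 0.47 and -0.08, beside -0.11, 0.12 and -0.01 for all genes. Up-regulated were 1 of 9, 2 of 11 and 0 of 9 genes, against 3.55%, 2.92% and 0.378% of all genes. Down-regulated were 0, against 3.93%, 0.613% and 1.01% of all genes.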

How the data were processed

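RNA-seq was performed by the study on total RNA of UM-UC-3 cells, with 100-base paired-end reads and 1 library per condition. The authors deposited CPM per Ensembl gene. The submitters' processing notes name hg19; aligner, counter, annotation, strand and filters are not given in the sources used here. CPM values came out as whole reads (tolerance 0.01 read) for 100% of genes with reads. Genes without reads carry a placeholder, taken as 0. Symbols matched 25647 of 27629 identifiers. Positions, transcript lengths and 3' UTRs are from GENCODE 29 (GRCh38), joined by identifier, and promoter windows from RefSeq (GRCh38.p14).

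Each knockdown was compared with control siRNA as described beside the results, without p-values, because there are no replicates. A gene was tested at 1 CPM or more in 1 of 2 libraries, with a pseudocount of 1. Ratios carry 95% Clopper-Pearson intervals and levels exact Poisson intervals of the reads. The members and lists were chosen with earlier results of these data known. Named were the 10 members, list genes past the threshold, the 2 genes of each list with the highest mean CPM over the libraries, pseudogenes at 1 CPM or more and 3 nearest genes for 2 members at 10 CPM or more. Alternatives were a pseudocount of 0.1, no filter, 5 CPM, a 1.5-fold threshold, median-of-ratios scaling over 12362 genes, the geometric mean of the other 3 libraries as reference, and an exact binomial test of the reads. In simulated libraries with counting noise only, 100% of 200 genes changed 4-fold were recovered in each comparison (13092 to 13421 genes). The changed genes were drawn from those with a mean of at least 10 CPM. Among the members only KRT8 and KRT18 reach that level, so recovery at the level of TP63 was not tested. Tables were handled in pandas 2.3.3 and numpy 2.4.6 under Python 3.11.15, intervals came from scipy 1.17.1 and plots from matplotlib 3.10.9.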

Additional observations from a re-analysis of the deposited data

Results flagged for a closer look

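CD44, a basal marker, is given here because its counting intervals lay on opposite sides of 0 in different knockdowns. Its difference in log2(CPM + 1) against control siRNA was -1.13 in si-hnRNPK, -0.70 in the si-lncRNA-LBCS-labelled library and 0.046 in si-PTBP1. With median-of-ratios scaling the last value was -0.08, so its direction depends on the scaling. The difference between the knockdowns was not tested, since each is 1 library. Such opposite intervals were not particular to CD44. Among other list genes, XBP1 was at 0.66 in si-hnRNPK and -0.45 in si-PTBP1, and CPT1A at -0.55 and 0.51.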

How the results depend on the processing

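Of 93 values of single identity genes under the alternatives, 90 kept their direction. The pseudocount, the filters and the binomial test cannot turn the direction of a gene, so only the scaling and the reference could. Most of the 93 values came from the settings that cannot turn it, so 90 of 93 overstates how stable the directions were. The exceptions were FOXA1 in si-hnRNPK under median-of-ratios scaling (0.03), and KRT8 in si-hnRNPK (-0.14) and KRT18 in the si-lncRNA-LBCS-labelled library (0.29) when the geometric mean of the other 3 libraries was the reference. The count of up-regulated identity genes, 1 in si-hnRNPK and in si-PTBP1, was 0 in both with a filter of 5 CPM, which TP63 does not reach, and 0 in both against the geometric mean. In si-PTBP1 it was 2 with a pseudocount of 0.1 and 2 with a 1.5-fold threshold, which added PPARG. A 1.5-fold threshold also gave 1 down-regulated gene, KRT18, in si-hnRNPK and 1 up-regulated gene, PPARG, in the si-lncRNA-LBCS-labelled library. The median of 0.19 in si-hnRNPK was 0.087 without a filter, -0.25 at 5 CPM, 0.30 under median-of-ratios scaling and -0.047 with the geometric mean as reference. In si-PTBP1 the median of 0.42 was 0.25 without a filter, 0.29 under median-of-ratios scaling and likewise 0.29 with the geometric mean as reference, and in the si-lncRNA-LBCS-labelled library 0.26 became 0.052 without a filter. The medians rest on the 4 or 5 genes at 1 CPM, on all 10 without a filter and on KRT8 and KRT18 at 5 CPM. In si-PTBP1 PPARG also passed the filter of 5 CPM. Over all genes, a 1.5-fold threshold gave 1352 up and 2165 down in si-hnRNPK (from 486 and 537), 1673 and 432 in si-PTBP1 (from 404 and 85) and 559 and 774 in the si-lncRNA-LBCS-labelled library (from 51 and 136). A pseudocount of 0.1 gave 790 and 995, 793 and 173, and 165 and 353, and the geometric mean as reference 317 and 356, 234 and 68, and 6 and 97. Median-of-ratios scaling gave 612 and 376, 257 and 133, and 54 and 133. The binomial test, which compares libraries and not conditions, gave a q of at most 0.05 for 79.5%, 73.5% and 70.3% of genes, and requiring it as well changed none of the 6 counts of identity genes past the threshold. The list genes and the pseudogene reads were put through alternatives chosen after seeing the data. For the scaling and the reference, the cause was not tested. No paired analysis was possible because each condition has 1 library.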
